A study of Equus caballus with 24 samples.

Results

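The genes described here encode the subunits of the receptors for GABA and glutamate in the horse. They were taken from the count table by gene symbol, as every gene of the GABA-A (GABRA, B, D, E, G, P, Q and R), GABA-B, AMPA (GRIA), NMDA (GRIN1, 2 and 3), kainate (GRIK), delta (GRID) and metabotropic glutamate (GRM) series. The rule found 46 of the 24232 genes of the table. Of these, 45 are receptor genes: 19 GABA-A, 2 GABA-B, 4 AMPA, 5 NMDA, 5 kainate, 2 delta and 8 metabotropic genes. The last is GRID2IP, which encodes delphilin, a protein that binds a delta receptor and is not a receptor. RNA was sequenced from the pituitary gland and from the epiphysis, the end of a long bone, of female Debao ponies (DPs), a small breed, and female Mongolian horses (MHs), a taller one. Each breed was sampled at a juvenile and an adult stage, and no animal was treated or genetically altered. The 8 groups of 3 libraries are the pituitary of juvenile DPs (DPPJ), adult DPs (DPPA), juvenile MHs (MHPJ) and adult MHs (MHPA), and the long bone of the same kinds of animals (DPLBJ, DPLBA, MHLBJ and MHLBA). By the paper's account, both tissues were taken from 6 DPs and 6 MHs, so that the 24 libraries come from 12 horses. The study asked which genes accompany the difference in body size between the breeds.

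GABA is the main inhibitory and glutamate the main excitatory transmitter of the brain. GABA-A receptors are chloride channels built of several subunits, most often alpha, beta and gamma, whereas the GABA-B receptor acts through G proteins and needs both of its subunits. AMPA, NMDA and kainate receptors are cation channels opened by glutamate, and metabotropic receptors signal through G proteins. The pituitary joins an anterior lobe of hormone-secreting cells, which carry GABA and glutamate receptors, with a posterior lobe of hypothalamic axons and glia.

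Between 11433209 and 27007342 reads per library were counted on genes, and levels are given as RPKM, the deposited values scaled for gene length and library size. The labelled tissues were checked with marker genes. In the long bone, 7 cartilage and bone markers summed to 2085 to 24106 RPKM. In the pituitary, growth hormone (GH) was at 6597 RPKM or more in 7 libraries, but at 6.47 RPKM in DPPA replicate 1, at 0, 3.36 and 0.12 RPKM in the MHPJ replicates and at 0.33 RPKM in MHPA replicate 1. The summed RPKM of 7 neuron markers was 1455, 1499 and 1658 in DPPA replicate 1 and MHPJ replicates 1 and 3. It was 228 in MHPJ replicate 2 and between 458 and 561 in the other 8 pituitary libraries. In MHPJ replicate 2, striated muscle markers summed to 536 RPKM and erythroid markers to 260 RPKM, against at most 10.1 and 1.05 RPKM in the other pituitary libraries. In DPPJ replicate 2, 5 astrocyte markers summed to 2096 RPKM and 6 oligodendrocyte markers to 1554 RPKM. In DPPJ replicates 1 and 3 they summed to 43.7 and 145 RPKM and to 87.4 and 351 RPKM. The 2 hypothalamic hormones summed to 495 RPKM in DPPJ replicate 2, to 2141 RPKM in DPPA replicate 1 and to at most 7.88 RPKM in the other pituitary libraries. DPPA replicate 1 and MHPA replicate 1 thus stand apart from their groups in GH, and DPPJ replicate 2 and MHPJ replicate 2 in other markers. All MHPJ libraries held little GH, so comparisons of MHPJ with another group cannot be made without the libraries low in GH. For those comparisons, only fits with 1 library left out are given. In bulk tissue, fewer cells of a type and less RNA per cell cannot be told apart.

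**Figure D1:**
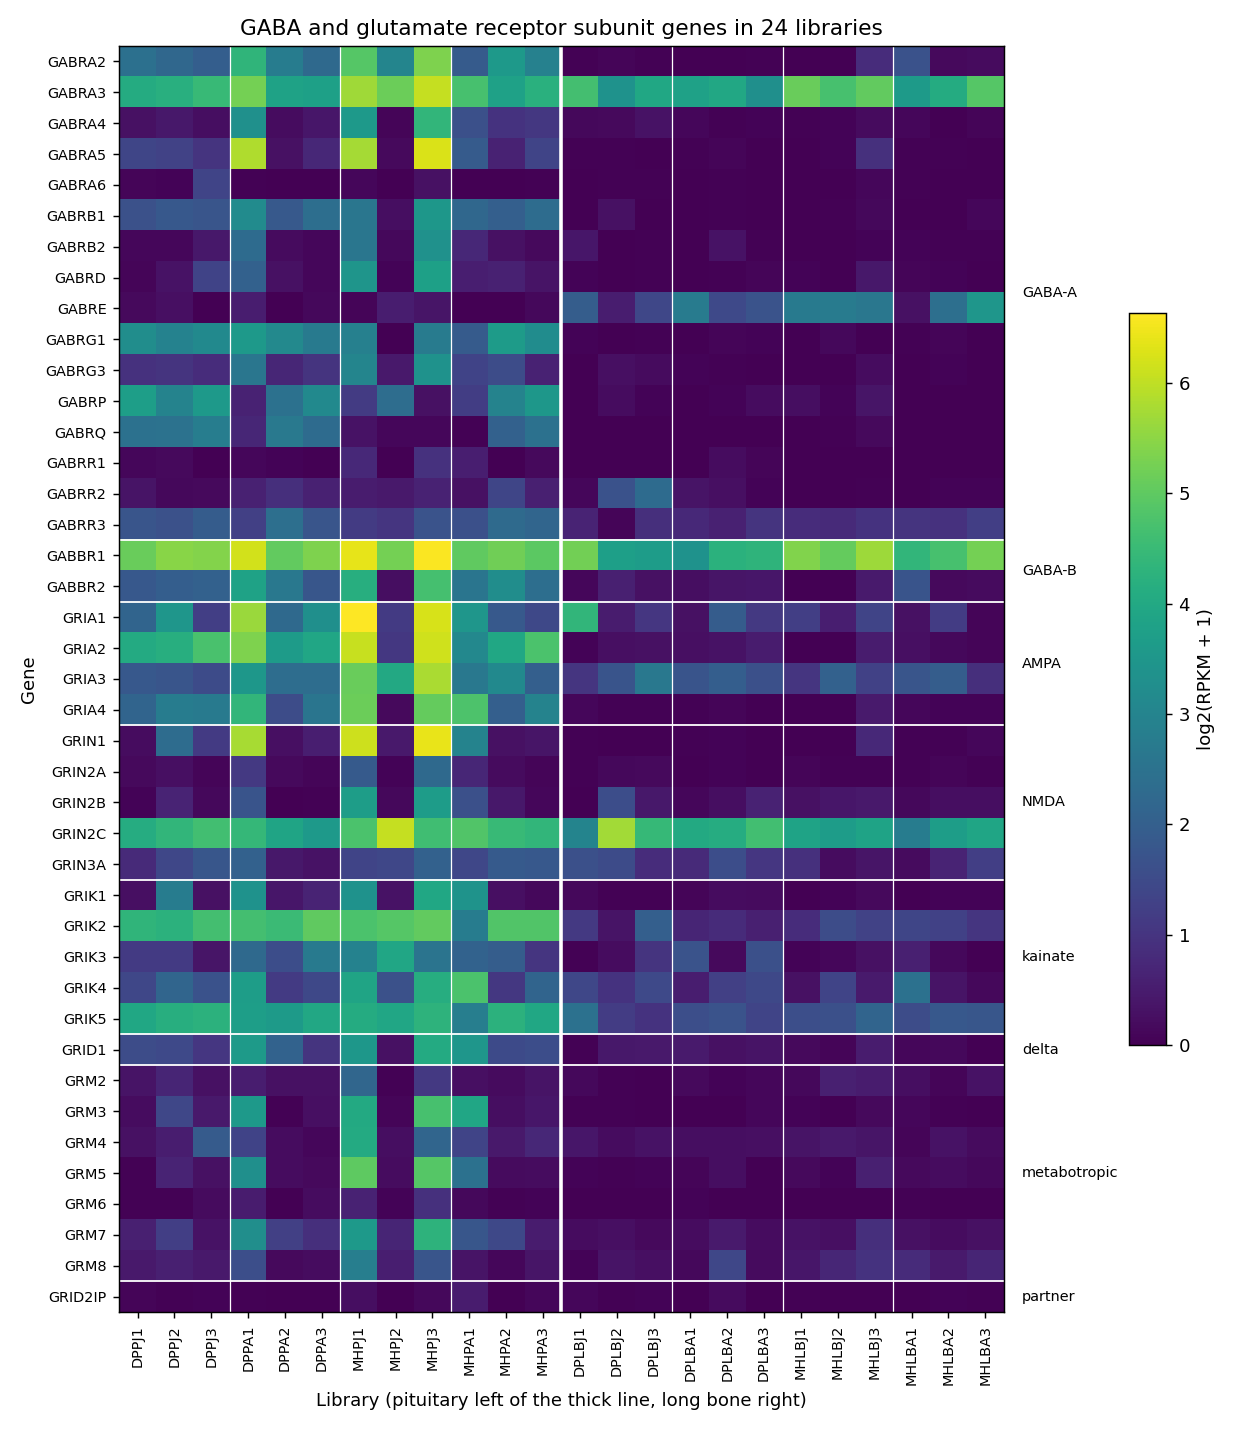
Each row is 1 of 41 of the 46 genes, in blocks by receptor class, and each column is 1 of the 24 libraries; the colour gives log2(RPKM + 1). Most rows are brighter in the pituitary, brightest in DPPA1, MHPJ1 and MHPJ3, while GABRA3, GABBR1 and GRIN2C are bright in both tissues.

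The pituitary libraries held RNA of every receptor class. The median over the 12 pituitary libraries was at least 1 RPKM for 27 of the 46 genes, against 9 of 46 in the long bone. GABBR1, the GABA-binding subunit of the GABA-B receptor, had the highest median at 38.2 RPKM (29.9 to 94.9). It was followed by the kainate receptor subunit GRIK2 with 25.1 RPKM (5.90 to 31.8) and the NMDA subunit GRIN2C with 20.8 RPKM (10.9 to 65.5). Other genes among the 10 with the highest medians were GABRA3 with 19.4, GRIA2 with 16.2, GRIK5 with 14.5 and GABRG1 with 7.20 RPKM. These are an alpha and a gamma subunit of the GABA-A receptor, an AMPA subunit and a second kainate subunit.

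The spread between pituitary libraries differed from gene to gene. GRIK5, a kainate subunit that forms channels together with GRIK1, 2 or 3, stayed between 6.14 and 18.5 RPKM, and its group means were 16.5 ± 2.01 in DPPJ, 12.7 ± 1.75 in DPPA, 16.2 ± 2.18 in MHPJ and 13.0 ± 6.21 in MHPA (SD, n = 3). GRIK2 averaged 20.5 ± 3.21 RPKM in DPPJ, 25.7 ± 4.78 in DPPA, 28.9 ± 2.86 in MHPJ and 20.3 ± 12.4 in MHPA, where replicate 1 had only 5.90 RPKM. For GRIK5 the libraries of each group overlapped those of every other. For GRIK2 the DPPJ libraries (18.1 to 24.1 RPKM) lay below the MHPJ libraries (26.1 to 31.8 RPKM), and the other pairs of groups overlapped. Of the other abundant genes, the DP groups were close to each other. GABBR1 averaged 39.3 ± 5.15 RPKM in DPPJ and 47.6 ± 21.2 in DPPA, against 71.4 ± 30.6 in MHPJ and 32.4 ± 3.01 in MHPA. GABRA3 averaged 18.1 ± 2.83, 20.9 ± 14.0, 50.2 ± 15.4 and 18.4 ± 6.25 RPKM in the same order of groups, and GRIN2C 19.9 ± 3.71, 14.9 ± 4.84, 38.2 ± 23.7 and 22.8 ± 4.04 RPKM. MHPJ thus had the highest mean of all 3 genes. GRIA2 averaged 19.3 ± 5.38, 21.7 ± 15.5, 46.1 ± 39.0 and 16.0 ± 9.19 RPKM in this order, and its 3 MHPJ libraries ran from 1.1 to 70.8 RPKM. For GABRG1 (7.71 ± 0.923, 7.99 ± 2.69, 4.06 ± 3.53 and 7.57 ± 4.47 RPKM), MHPJ had the lowest mean.

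By contrast, GRIN1, the subunit that every NMDA receptor contains, was at 0.16, 4.04 and 1.20 RPKM in DPPJ, at 69.3, 0.38 and 83.9 in MHPJ, at 53.7, 0.20 and 0.46 in DPPA and at 6.76, 0.24 and 0.29 in MHPA. High GRIN1 was thus a property of single libraries and not of a whole group. GABRA5, an alpha subunit of GABA-A receptors found mainly outside synapses, was likewise at 56.5 RPKM in DPPA replicate 1 and at 52.3 and 76.2 RPKM in MHPJ replicates 1 and 3, and at most 2.74 RPKM in the other 9 libraries.

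Most of the genes were highest in 1 of these 3 libraries, though often by less. The highest pituitary value of 35 of the 46 genes was in DPPA replicate 1, MHPJ replicate 1 or MHPJ replicate 3, and the lowest value of 19 genes was in MHPJ replicate 2. The 35 include GRIK2, at 31.8 RPKM in MHPJ replicate 3 and 31.1 RPKM in DPPA replicate 3. Of 30 genes with over 3 reads in every pituitary library, 16 had a highest RPKM more than 50 times the lowest. The GABA-A genes summed to 236, 255 and 329 RPKM in the first 3 libraries and to 49.6 RPKM in MHPJ replicate 2. The other 8 libraries lay between 57.5 and 89.8 RPKM. The 8 metabotropic genes summed to 35.3, 94.0 and 87.0 RPKM in the same 3 libraries, to 23.7 RPKM in MHPA replicate 1, to 1.72 RPKM in MHPJ replicate 2 and to between 3.80 and 10.8 RPKM in the others. No read of GABRG1, a gamma subunit known from glia, was counted in MHPJ replicate 2, which allows up to 3 reads, although the other 11 libraries had 2.74 to 11.6 RPKM. The neuron marker sums given above were highest and lowest in the same libraries, and their part in the receptor values was not tested.

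Not every gene followed. In MHPJ replicate 2, where most members were low, GRIN2C reached 65.5 RPKM and GRIK3, another kainate subunit, 14.1 RPKM, the highest value of each gene in the pituitary. GRIK4, a kainate subunit that depends on GRIK1 to 3 for its channel, was highest at 26.2 RPKM in MHPA replicate 1, the library with the highest sum of 6 oligodendrocyte markers (11733 RPKM). GABRA6, an alpha subunit known from cerebellar granule cells, was at 1.56 RPKM (96 reads) in DPPJ replicate 3 and at most 0.23 RPKM in the other pituitary libraries. GABRQ and GABRP, the theta and pi subunits of the GABA-A receptor, were low in other libraries. GABRQ was at 4.55, 4.68 and 6.01 RPKM in DPPJ, at 0.65, 5.47 and 3.95 in DPPA, at 0.26, 0.08 and 0.08 in MHPJ and at 0.03, 3.18 and 4.59 in MHPA. The 5 libraries with GABRQ under 1 RPKM were the same 5 in which GH was at 6.47 RPKM or less. GABRP was at 12.3, 6.79 and 11.1 RPKM in DPPJ, at 0.56, 4.59 and 7.91 in DPPA, at 1.22, 4.19 and 0.22 in MHPJ and at 1.29, 6.85 and 10.4 in MHPA, so that the same 5 libraries held its lowest values.

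**Figure D2:**
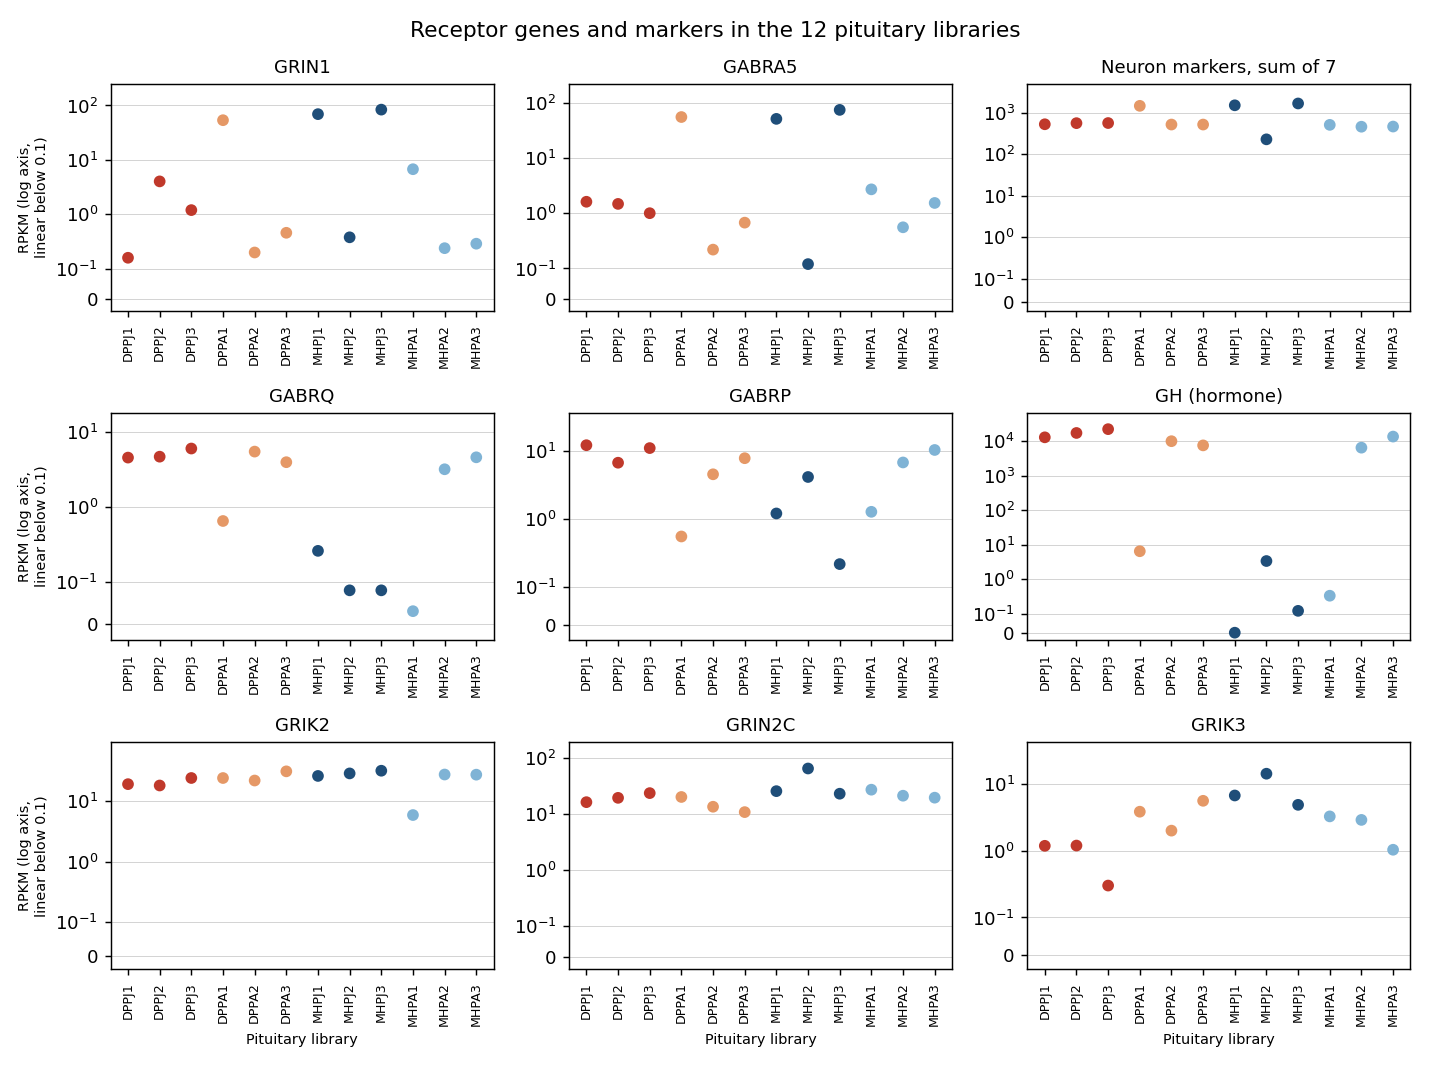
RPKM of 7 receptor genes, of GH and of the summed neuron markers in each of the 12 pituitary libraries, on log axes that are linear below 0.1; colours mark the 4 groups (red DPPJ, orange DPPA, dark blue MHPJ, light blue MHPA). GRIN1 and GABRA5 exceed 50 RPKM only in DPPA1, MHPJ1 and MHPJ3, GABRQ is under 1 RPKM in the 5 libraries with little GH, and GRIK2 varies little except in MHPA1.

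Several GABA-A genes lie next to each other in the horse genome, according to RefSeq's annotation of the TB-T2T assembly, in which all 46 symbols were found. No other protein-coding gene lies between GABRE, GABRA3 and GABRQ, between GABRA5 and GABRG3, or between GABRR1 and GABRR2. In the group of GABRB1, GABRA4, GABRA2 and GABRG1, 1 other gene lies between GABRA4 and GABRA2. Only some neighbouring genes shared a pattern. GABRA5 and GABRG3 both had their highest pituitary values in DPPA replicate 1 and MHPJ replicates 1 and 3. The same held for GABRB1, GABRA4 and GABRA2, but not for GABRG1. GABRR1 and GABRR2 were highest in different libraries. The genes at the third site differed between the tissues. GABRE was a long bone gene (median 3.64 against 0.10 RPKM in the pituitary), GABRA3 was present in both tissues (15.2 and 19.4 RPKM), and GABRQ was found in the pituitary (median 3.57 RPKM) and had at most 5 reads in any long bone library.

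In the juvenile pituitary, 20 of the 41 members tested were differentially expressed (DEGs) between DPs and MHs, 19 of them lower and 1 higher in DPs. DEGs were genes with a fold change above 2 and an unadjusted P under 0.05 in edgeR's quasi-likelihood test. By the same threshold 20.3% of all 14603 genes tested were DEGs, 12.7% lower and 7.6% higher in DPs. The median log2 fold change was -2.35 over the members tested and -0.07 over all genes. With a Benjamini-Hochberg adjusted p under 0.05 in edgeR, 5 of the 41 members remained DEGs, GABRQ, GRIA3, GABRA3, GRIK3 and GABRA2, against 8.73% of all genes. That count of 5 was 0 without DPPJ replicate 1 or DPPJ replicate 3 and 1 without DPPJ replicate 2 or MHPJ replicate 1. It was 2 without MHPJ replicate 3 and 32 without MHPJ replicate 2. With the replicate number as a block it was 0, and DESeq2 gave 20. The adjusted count over all genes moved as well, from 1275 in the main fit. It was 8, 223 and 9 without DPPJ replicates 1, 2 and 3. Without MHPJ replicates 1, 2 and 3 it was 171, 4047 and 271. With the block it was 0, and DESeq2 gave 2788. The 5 genes not tested for few reads were GABRA6, GABRE, GABRR1, GRM6 and GRID2IP. By the unadjusted threshold, the count of 20 became 8 without DPPJ replicate 1, 12 without DPPJ replicate 2 and 8 without DPPJ replicate 3. It became 12 without MHPJ replicate 1, 34 without MHPJ replicate 2 and 10 without MHPJ replicate 3. Over all genes the unadjusted count was 2962 in the main fit. It was 2153, 2752 and 2160 without DPPJ replicates 1, 2 and 3, and 2837, 4505 and 2850 without MHPJ replicates 1, 2 and 3. All 6 hormone cell markers tested were higher in DPs, and 2 of 7 neuron, 1 of 5 astrocyte and 3 of 6 oligodendrocyte markers were lower, and their part in the receptor differences was not tested.

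Of the 16 GABA-A genes tested, 1 was higher and 7 were lower in DPs. GABRQ was counted with 180, 200 and 282 reads in DPPJ and with 10, 2 and 3 reads in MHPJ, for a log2 difference of 4.94 (SE 0.53, adjusted p = 0.0124). The groups did not overlap, and GABRQ was the only member with a higher level in DPs among the DEGs. GABRA3, an alpha subunit typical of monoaminergic nuclei, was at 16.0, 17.1 and 21.3 RPKM in DPPJ and at 50.4, 34.6 and 65.5 RPKM in MHPJ, which gave -1.66 (SE 0.27, adjusted p = 0.0240). GABRA2, an alpha subunit of synaptic receptors, was at 4.49, 3.63 and 2.92 RPKM against 28.7, 7.05 and 39.7 RPKM, and differed by -2.95 (SE 0.64, adjusted p = 0.0417). The groups overlapped for neither gene. By the unadjusted threshold these 3 calls held in each fit with 1 library left out. GABRR2, a rho subunit known from the retina, had few reads, 10, 4 and 5 against 14, 9 and 18, and differed by -1.60 (SE 0.57, adjusted p = 0.119).

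The other 4 GABA-A DEGs were GABRA4 with a log2 fold change of -5.50, GABRA5 with -5.13, GABRB2 with -4.94 and GABRG3 with -2.82. In each of them MHPJ replicate 2 lay below the highest DPPJ library. GABRB2, a beta subunit of synaptic receptors, was for example at 0.09, 0.08 and 0.35 RPKM in DPPJ and at 5.05, 0.10 and 9.22 RPKM in MHPJ. Their adjusted p lay between 0.0856 and 0.124. GABRP (log2 difference 2.22, SE 0.97, adjusted p = 0.178) and GABRG1 (0.76, SE 1.29) were not DEGs. In the GABA-B pair, GABBR1 was at 33.5, 43.1 and 41.4 RPKM in DPPJ and at 82.6, 36.9 and 94.9 RPKM in MHPJ (-1.05, SE 0.35, adjusted p = 0.105). MHPJ replicate 2 lay within the range of DPPJ, and the call was lost without TMM normalization and in 5 of the 6 fits with 1 library left out.

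Among the glutamate receptors, 2 of 4 AMPA, 4 of 5 NMDA, 2 of 5 kainate, 3 of 7 metabotropic and 0 of 2 delta genes tested were lower in DPs. GRIA3, an AMPA subunit, was at 2.52, 2.38 and 1.84 RPKM in DPPJ and at 33.8, 14.9 and 54.9 RPKM in MHPJ. Its log2 difference of -4.13 (SE 0.52, adjusted p = 0.0153) was the only one among the AMPA genes with groups that did not overlap. GRIA1 was at 3.42, 10.1 and 1.36 RPKM against 98.3, 1.18 and 74.5 RPKM, so that 1 MHPJ library lay below all of DPPJ, and differed by -3.70 (SE 1.51, adjusted p = 0.155). GRIA2, which makes AMPA channels impermeable to calcium, was not a DEG (-1.43, SE 1.19, adjusted p = 0.439).

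GRIK3 was at 1.18, 1.19 and 0.30 RPKM in DPPJ and at 6.68, 14.1 and 4.84 RPKM in MHPJ, for a log2 difference of -3.47 (SE 0.72, adjusted p = 0.0383). The groups did not overlap, and both the GRIA3 and the GRIK3 call held, by the unadjusted threshold, in each fit with 1 library left out. GRIK4 differed by -2.32, and GRIK2, with -0.70 (SE 0.19), did not reach a fold change of 2. All NMDA genes but GRIN3A were DEGs, GRIN1 by -5.01, GRIN2A by -4.22, GRIN2B by -5.21 and GRIN2C by -1.16 on the log2 scale. GRIN2A and GRIN2B bind glutamate in the NMDA receptor, and GRIN3A is a subunit that lowers its calcium entry. The 4 calls rested on different libraries. MHPJ replicates 1 and 3 were high for GRIN1, GRIN2A and GRIN2B, whereas GRIN2C was at 16.4, 19.6 and 23.8 RPKM in DPPJ and at 25.8, 65.5 and 23.2 RPKM in MHPJ, and was no DEG without TMM normalization and in 4 of the 6 fits with 1 library left out, those without MHPJ replicate 2 or any DPPJ library.

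The metabotropic DEGs were GRM5, GRM7 and GRM8. GRM5, which acts through phospholipase C, differed by -6.35 (SE 1.92, adjusted p = 0.0850), and was at 0.03, 0.57 and 0.22 RPKM in DPPJ and at 30.9, 0.16 and 28.6 RPKM in MHPJ. GRM7, a presynaptic receptor that inhibits release, differed by -4.03, and GRM8, of the same group, by -3.01. GRM8 remained a DEG in each fit with 1 library left out. The delta receptor GRID1 (-2.64, SE 1.23) was not a DEG.

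**Figure D3:**
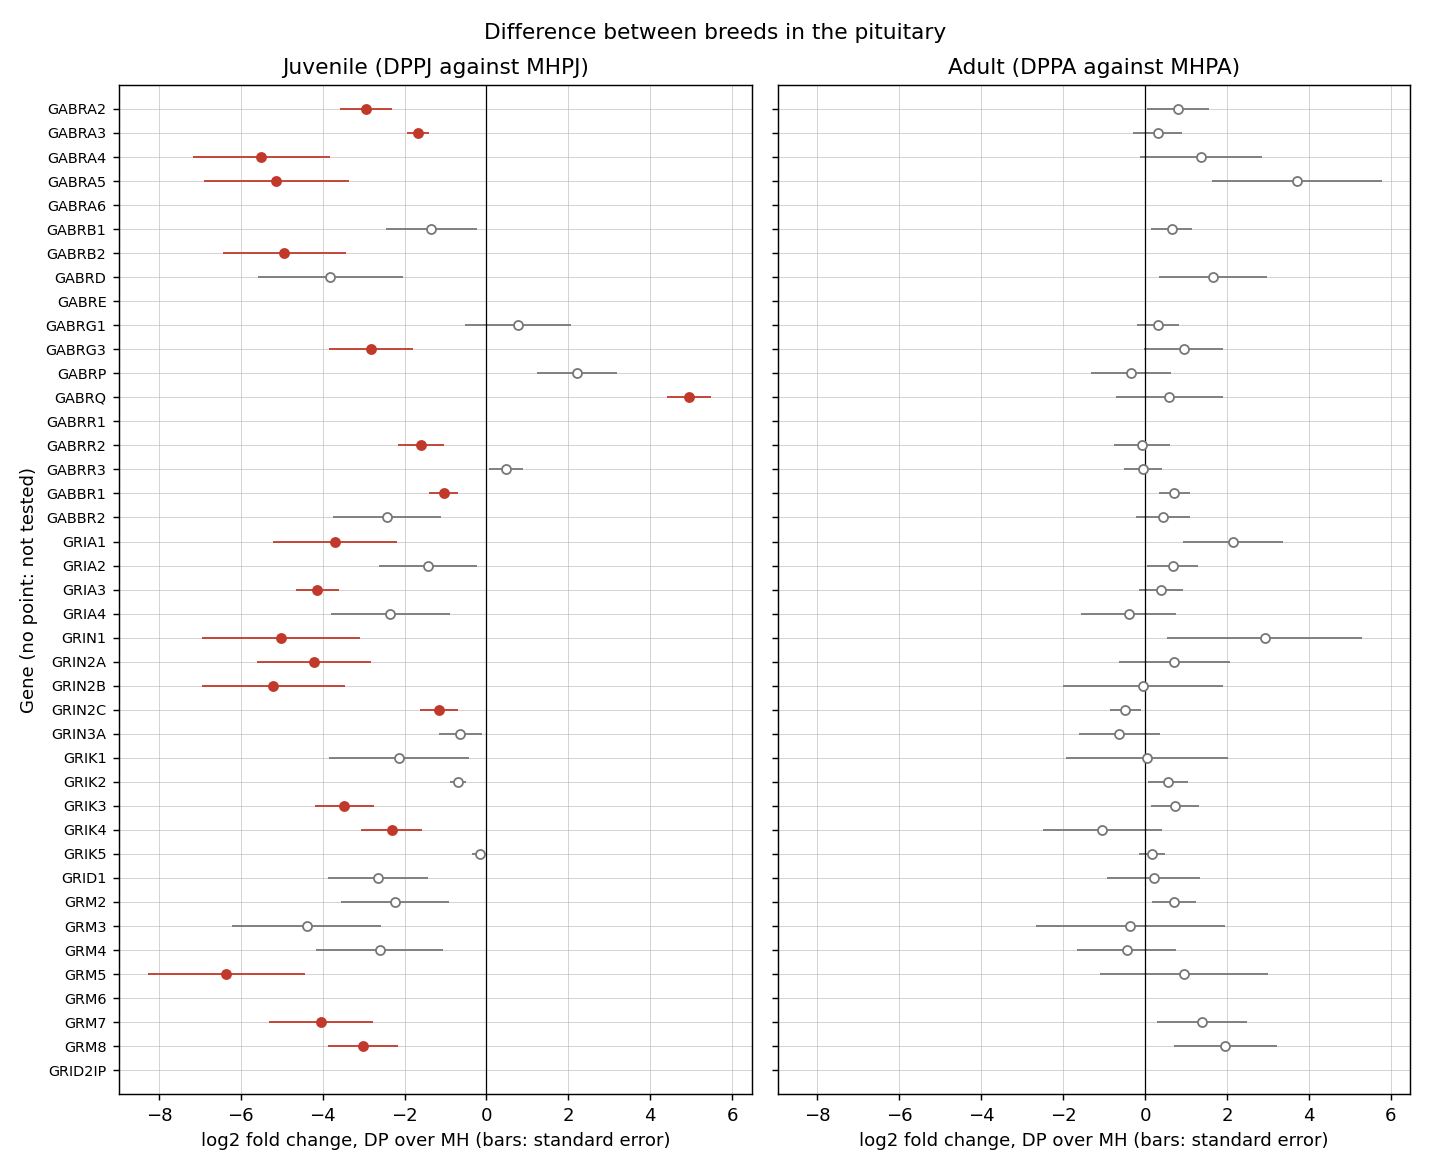
Each point is the log2 fold change of 1 gene between DPs and MHs in the juvenile (left) and adult (right) pituitary, with its standard error; filled points passed the threshold of more than 2-fold and an unadjusted P under 0.05. On the left 19 genes are filled below 0 and GABRQ above it, and on the right none of the 35 genes drawn is filled.

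In the adult pituitary, 0 of the 40 members tested were DEGs between DPs and MHs in edgeR, and 0 had an unadjusted P under 0.05. DESeq2 called 1. Of all genes tested, 2.93% were DEGs. The log2 differences ranged from -1.04 to 3.71, with a median of 0.50, and 28 of the 40 were positive. The largest, GABRA5 with 3.71 (SE 2.07), came from 56.5, 0.22 and 0.68 RPKM in DPPA and 2.74, 0.56 and 1.55 RPKM in MHPA, so that 2 of the 3 DPPA libraries lay within or below the range of MHPA. With the replicate number as a block, 2 members were DEGs, of which GRIA1 differed by 1.88 (SE 0.39, adjusted p = 0.331), against 593 of 14376 genes in all. Without DPPA replicate 1 and MHPA replicate 1, the adult libraries under 10 RPKM of GH, a choice made after seeing the data, 5 of the 38 members tested were DEGs, against 866 of 14394 genes in all. They were GRIN3A (-2.89, SE 0.35, adjusted p = 0.0426), GABRA4 (-1.93) and GRM4 (-1.87), which were lower in DPs, and GRIA1 (1.72) and GRIK1 (1.67), which were higher. GRIN3A was at 0.35 and 0.26 RPKM in DPPA replicates 2 and 3 and at 2.70 and 2.54 RPKM in MHPA replicates 2 and 3. Without DPPA replicate 1 alone, the count was 4, all lower in DPs. The median log2 difference was then -0.40, with 13 members positive and 26 negative, so that the prevailing sign rested on that library. Without DPPA replicate 3, MHPA replicate 1 or MHPA replicate 3, the count was 1.

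Whether the breed effect changed with the stage was tested over all 12 pituitary libraries. Of 44 members, 18 had an unadjusted P under 0.05 and a more than 2-fold change of the breed effect, 17 of them with a more negative DP to MH difference in juveniles. GABRQ had a more positive one. The share over all genes was 15.7%. None of the 18 had an adjusted p under 0.05 in edgeR, where the lowest was 0.131 for GRIA3. DESeq2 gave 11 with an adjusted p under 0.05. Of all 15200 genes tested, 0 passed an adjusted p under 0.05 with a more than 2-fold change in edgeR and 1051 in DESeq2. The count of 18 fell to 8 without DPPA replicate 1, with 2 higher and 6 lower, and to 11 without MHPJ replicate 3. Over all genes the unadjusted count moved from 2382 to 1359 and 2123 in these fits. The 6 hormone cell markers differed between the stages in the same direction as GABRQ, and 4 of 7 neuron markers in the same direction as the 17. Their part in the result was not tested.

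The comparisons between the stages share their libraries with the breed comparisons above, so that they are not independent of them. In the MH pituitary, 9 of 41 members tested were DEGs, and all 9 were higher in juveniles. Among all genes 7.74% were DEGs, 4.5% higher and 3.24% lower, and without TMM normalization the share of higher genes among all DEGs moved from 58.2% to 47.2%. In edgeR no member had an adjusted p under 0.05, but 1 had without MHPJ replicate 2, and in DESeq2 6 had. Of all genes, with a more than 2-fold change as well, 0 of 14430 passed in edgeR, 61 without MHPJ replicate 2 and 581 in DESeq2. GRIA3 was at 33.8, 14.9 and 54.9 RPKM in MHPJ and at 5.32, 7.79 and 3.05 RPKM in MHPA (log2 fold change 2.87, SE 0.60, adjusted p = 0.346). The groups did not overlap for GRIA3, GRM8 (3.86), GABRA3 (1.59), GABBR1 (1.32) and GRIK3 (2.0), but they did for GABRA2 (2.16), GABRA5 (4.82), GABRB2 (3.90) and GABRD (4.30), a delta subunit of receptors that carry tonic inhibition. GABBR1 was at 82.6, 36.9 and 94.9 RPKM in MHPJ and at 31.6, 35.8 and 29.9 RPKM in MHPA. The count was 23 without MHPJ replicate 2, 22 of them higher, and 5 without MHPJ replicate 1, without MHPA replicate 2 or without MHPA replicate 3. All 3 hormone cell markers tested were lower in juvenile MHs, and 1 of 7 neuron markers was higher.

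In the DP pituitary, 6 of 39 members tested were DEGs, and all 6 were lower in juveniles. Of all genes, 3.56% were DEGs, 2.64% lower and 0.929% higher, and without TMM normalization the share of higher genes among all DEGs moved from 26.1% to 51.3%. In edgeR no member had an adjusted p under 0.05, and in DESeq2 2 had. Of all 14533 genes tested, with a more than 2-fold change as well, 0 passed in edgeR and 109 in DESeq2. GRIK3 was at 1.18, 1.19 and 0.30 RPKM in DPPJ and at 3.82, 1.99 and 5.56 RPKM in DPPA (-2.18, SE 0.61, adjusted p = 0.419). GRIA3 was at 2.52, 2.38 and 1.84 RPKM against 10.3, 4.19 and 4.17 RPKM (-1.63, SE 0.46). GABRR2 (-2.05) and GABRB1 (-1.26), a beta subunit, also had groups that did not overlap, while GABRA4 (-3.83) and GRM7 (-2.59) had not. For GABRA4, DPPA replicate 1 held 8.98 RPKM and the other 5 libraries 0.16 to 0.35 RPKM, and without that replicate its log2 fold change was 0.048. The count was 3 without DPPJ replicate 1 or 3 and without TMM normalization, 12 without DPPA replicate 2 and 13 without DPPA replicate 3. Without DPPA replicate 1, 8 members were DEGs, 6 higher and 2 lower in juveniles, so that the direction of the list rested on that library. GRIA3 was no longer a DEG in that fit, whereas GRIK3 and GABRR2 held in each fit with 1 library left out. None of the 6 hormone cell markers and 1 of 7 neuron markers was a DEG here. GRIA3 and GRIK3 were thus DEGs in both stage comparisons, higher in juvenile MHs and lower in juvenile DPs. In MHs the GRIK3 call was lost without MHPJ replicate 2 and without MHPA replicate 2. There the GRIA3 call held in each fit with 1 library left out.

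Between the tissues, 38 of 45 members tested differed, 37 of them higher in the pituitary. GABRE, the epsilon subunit, was the 1 member higher in the long bone. By the same threshold 38.9% of all genes differed, 21.5% higher in the pituitary and 17.4% lower. All 38 had an adjusted p under 0.05 in edgeR, against 38.3% of all genes. This fit took the 24 libraries as independent, although they come from 12 horses, because the labels do not say which libraries share a horse. With same-numbered libraries of a breed and stage as a block, 38 members differed again, and 34 had an adjusted p under 0.05. Over all genes, 6025 differed in the block fit and 5775 by the adjusted threshold. The median log2 fold change of the members was 4.16 and that of all genes 0.03. All 4 AMPA, 5 kainate and 2 delta genes, 7 of 8 metabotropic, 16 of 18 GABA-A, 2 of 5 NMDA and 1 of 2 GABA-B genes were higher in the pituitary. For GRIA2, GABRA2, GABRG3, GRIK2 and GRIK5, every pituitary library lay above every long bone library. The share of all genes with such a separation was not counted. The 25 members with the lowest P included, in this order, GRIK2, GRIK5, GABRG1, GRIA2, GABRB1, GABRP, GRIA4, GABRA2, GABRG3, GABRQ, GABRE, GRID1, GABRA5, GRIN1, GABRA4, GRM7, GRIK1, GRM3, GABBR2 and GABRD. The largest log2 difference among them was that of GABRQ (7.84, SE 0.91), followed by GRIN1 (7.71, SE 1.29), and the smallest in size that of GRIK5 (2.52, SE 0.23). GRIK2 was at 5.90 to 31.8 RPKM in the pituitary and at 0.27 to 3.03 RPKM in the long bone (4.16, SE 0.32, adjusted p = 5.96e-09). GABRE was at 0 to 0.45 RPKM in the pituitary and at 0.22 to 10.2 RPKM in the long bone (-4.92, SE 0.70). Without the 5 pituitary libraries under 10 RPKM of GH, 31 of 42 members tested differed, 28 higher and 3 lower, against 3135 higher and 3377 lower of 16196 genes in all. The median log2 fold change of the members was 2.41 in that fit, and the difference of GRIN1 was 3.65. The 3 lower ones were GABRE (-5.86), GRIN2B (-1.83) and GRM8 (-1.35). In the fit of all libraries, GRM8 and GRIN2B had positive differences, and GRM8 had a median of 0.37 RPKM in the pituitary and 0.35 RPKM in the long bone.

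The 7 members that did not differ between the tissues included the most abundant receptor genes of the long bone. GABBR1 was at 9.34 to 50.0 RPKM there (median 22.3), and its difference of 0.77 (SE 0.22) was under the 2-fold threshold. GABRA3 was at 8.80 to 34.0 RPKM (median 15.2; 0.31, SE 0.22) and GRIN2C at 5.91 to 51.6 RPKM (median 13.8; 0.37, SE 0.25). The next were GABRE with a median of 3.64 RPKM and GRIA3 with 2.31 RPKM. At the other end, 23 of the 46 genes had at most 3 reads in 6 or more of the 12 long bone libraries, and GRM6, a receptor of retinal bipolar cells, had at most 3 reads in all of them.

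The partners of these subunits were low in the same libraries. GABA-A channels usually hold alpha and beta subunits, but GABRB1 was at most 0.24 RPKM and GABRB2 at most 0.31 RPKM in any long bone library. GABBR1 needs GABBR2 to reach the cell surface, and GABBR2 was at 0 to 0.49 RPKM in 11 long bone libraries and at 2.29 RPKM in MHLBA replicate 1. GRIN2C forms NMDA receptors with GRIN1, and GRIN1 was at 0.69 RPKM in MHLBJ replicate 3 and at most 0.09 RPKM in the other 11 libraries. In the pituitary, GABRB1 (median 3.32 RPKM), GABBR2 (4.61 RPKM) and, in single libraries, GRIN1 were present beside them. The deposited gene length behind the RPKM of GRIN2C was 1641 bases.

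**Figure D4:**
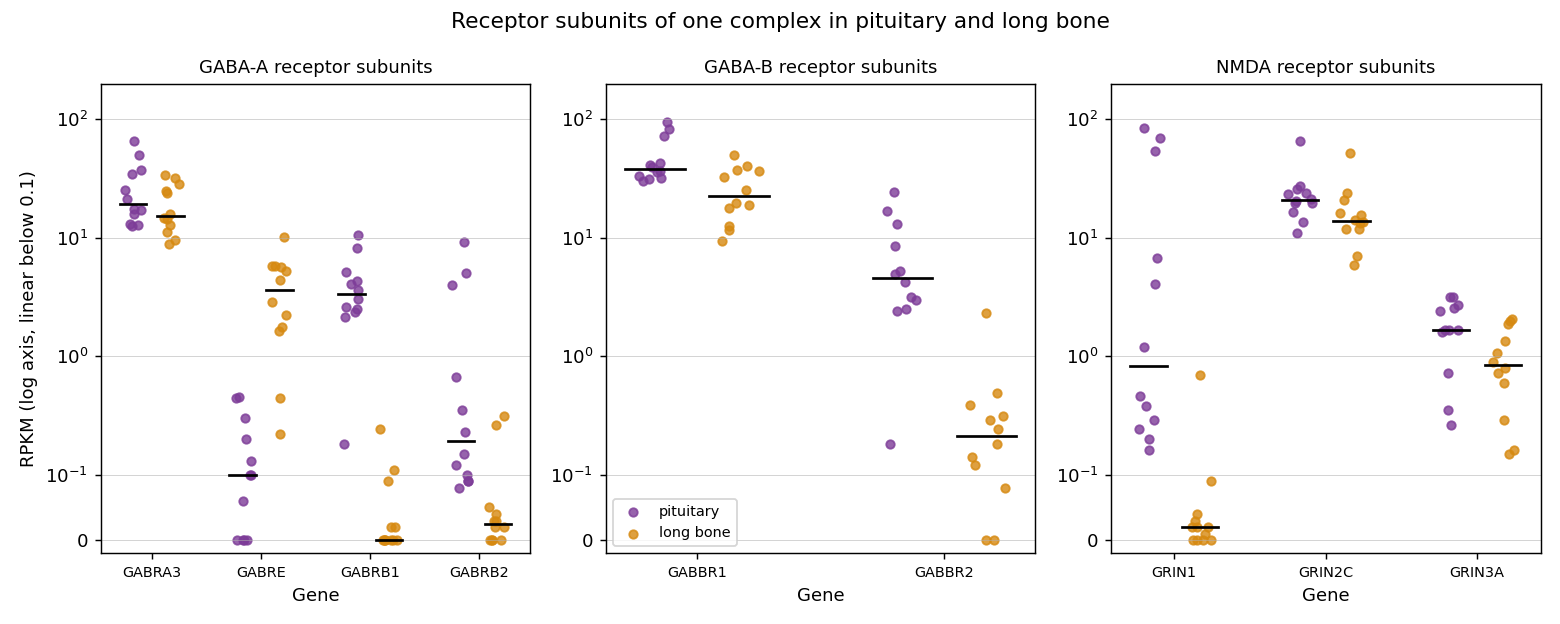
RPKM of subunits that assemble with each other, in the 12 pituitary (purple) and 12 long bone (orange) libraries, on a log axis that is linear below 0.1; black lines are medians. In the long bone GABRA3, GABBR1 and GRIN2C lie at medians of 15.2, 22.3 and 13.8 RPKM, while GABRB1, GABRB2, GABBR2 and GRIN1 have medians of at most 0.21 RPKM.

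Single long bone libraries differed from the rest. In MHLBJ replicate 3, 16 of the 46 genes had their highest long bone value, among them GABRA5 (0.89 RPKM), GRIN1 (0.69 RPKM) and GRM5 (0.49 RPKM). Those values were 1.17%, 0.822% and 1.72% of the values in MHPJ replicate 3. The neuron markers summed to 23.7 RPKM in MHLBJ replicate 3, which was 1.43% of their sum in MHPJ replicate 3, and to 1.14 to 13.9 RPKM in the other long bone libraries. GRIA1 was at 19.6 RPKM in DPLBJ replicate 1 and at most 2.81 RPKM in the other 11. GABRR2 was at 2.21 and 3.97 RPKM (68 and 136 reads) in DPLBJ replicates 2 and 3 and at most 0.28 RPKM in the others, and GRIN2C had its highest long bone value, 51.6 RPKM, in DPLBJ replicate 2. In these 2 libraries the erythroid markers summed to 6560 and 3170 RPKM, against at most 152 RPKM in the other 10. The part of neuronal or erythroid RNA in these values was not tested, nor was whether reads passed between the libraries of MHPJ replicate 3 and MHLBJ replicate 3.

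In the juvenile long bone, 2 of 19 members tested were DEGs between the breeds, while 13.8% of all genes were. GRIN3A was at 2.07, 1.88 and 0.79 RPKM in DPLBJ and at 0.90, 0.16 and 0.29 RPKM in MHLBJ, and was higher in DPs by 2.02 (SE 0.76, adjusted p = 0.238). The groups overlapped, and the call was lost without TMM normalization and in 4 of the 6 fits with 1 library left out. GABRE was at 2.87, 0.44 and 1.64 RPKM in DPLBJ and at 5.71, 5.80 and 5.19 RPKM in MHLBJ, and was lower in DPs by -1.63 (SE 0.61, adjusted p = 0.239). The groups did not overlap, but the call was lost in 4 of the 6 fits with 1 library left out, those without DPLBJ replicate 3 or any MHLBJ library. The count was 9 when DPLBJ replicate 1 was left out and 4 without MHLBJ replicate 1. Between the same groups 4 of 6 cartilage and bone markers and 2 of 2 erythroid markers were higher in DPs, and all 3 adipocyte and all 3 muscle markers and 2 of 3 neuron markers were lower. Their part in the differences of GABRE and GRIN3A was not tested. The 17 members that were not DEGs had log2 differences from -1.69 to 2.83, among them GABRA3 with 23.9, 9.51 and 14.4 RPKM in DPLBJ and 25 to 34.0 RPKM in MHLBJ.

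In the adult long bone, 1 of 20 members tested was a DEG, against 18.3% of all genes. GRIK2 was at 0.61, 0.77 and 0.50 RPKM in DPLBA and at 1.63, 1.43 and 1.03 RPKM in MHLBA, and was lower in DPs by -1.34 (SE 0.52, adjusted p = 0.170). The groups did not overlap, but the call was lost in 4 of the 6 fits with 1 library left out, those without DPLBA replicate 1, DPLBA replicate 3, MHLBA replicate 1 or MHLBA replicate 2. The count was 4 without DPLBA replicate 2 and 3 without MHLBA replicate 1 or without MHLBA replicate 3. Of the markers, 3 of 7 for cartilage and bone were higher and 2 of 2 for muscle and 3 of 4 for neurons were lower in DPs, and their part was not tested. Between the stages, 0 of 18 members tested were DEGs in the MH long bone, where 2.91% of all genes were, and 0 of 19 in the DP long bone, where 3.14% were. In MHs 1 member had an unadjusted P under 0.05 and DESeq2 called 0. In DPs 0 had one and DESeq2 called 1. The count was 2 in MHs without MHLBJ replicate 3. It was 2 in DPs without DPLBJ replicate 1, and 1 without DPLBJ replicate 2, DPLBJ replicate 3 or DPLBA replicate 1. GABBR1 averaged 20.1 ± 14.0 RPKM in DPLBJ, 15.3 ± 5.23 in DPLBA, 40.9 ± 8.80 in MHLBJ and 27.2 ± 8.99 in MHLBA (SD, n = 3). GABRA3 had means of 15.9 ± 7.33, 12.1 ± 2.99, 30.4 ± 4.76 and 18.5 ± 8.94 RPKM in the same order, so that both genes were highest in MHLBJ. GRIN2C averaged 26.5 ± 22.8, 18.5 ± 4.70, 12.9 ± 0.974 and 10.6 ± 4.19 RPKM, GABRE 1.65 ± 1.22, 3.24 ± 2.17, 5.57 ± 0.329 and 4.95 ± 5.02 RPKM, and GRIA3 2.87 ± 2.18, 2.45 ± 0.444, 1.88 ± 1.13 and 2.05 ± 1.06 RPKM. None of these genes but GABRE in juveniles was a DEG between 2 groups of the long bone.

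**Figure D5:**
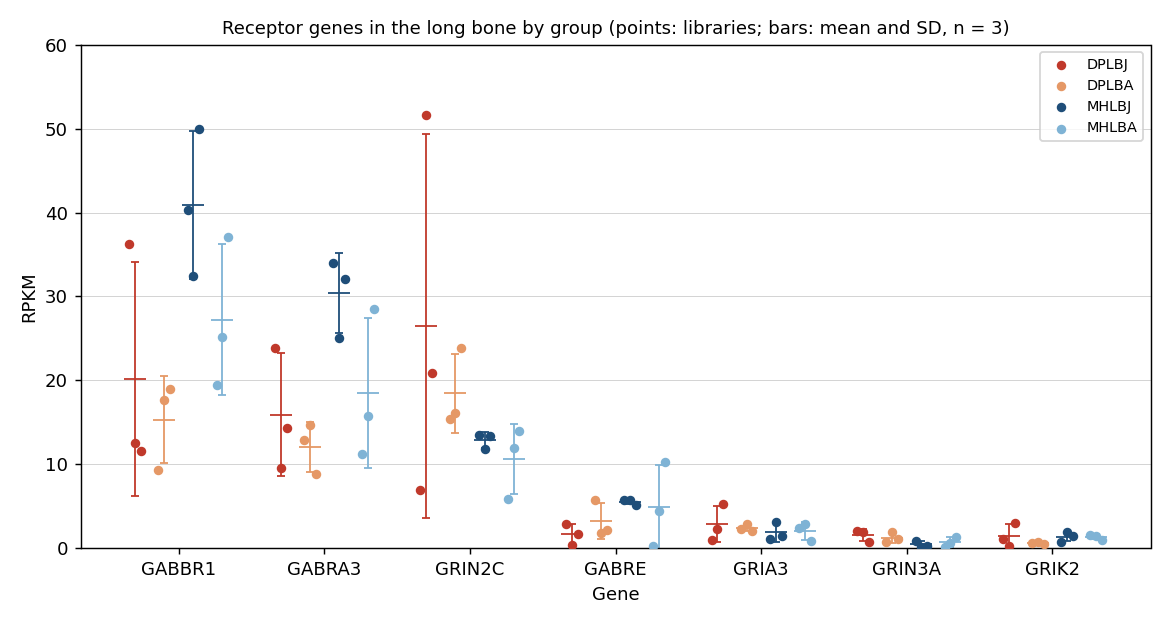
RPKM of the 5 members with the highest long bone medians and of GRIN3A and GRIK2 in the 4 long bone groups; points are libraries, and bars show the mean and SD (n = 3). GABRE lies between 5.19 and 5.80 RPKM in the MHLBJ libraries and at 2.87 RPKM or less in DPLBJ, and GRIN2C is spread from 6.95 to 51.6 RPKM within DPLBJ.

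Other genes of both transmitter pathways were looked at as 3 lists. Beside their counts in the juvenile pituitary, 12.7% of all genes were lower in DPs and 7.6% higher. In the juvenile pituitary, 2 of 12 tested genes for the synthesis, transport and anchoring of GABA receptors were lower in DPs and 0 higher. One of them was NLGN2, an adhesion protein of inhibitory synapses (-1.38, SE 0.44). GAD2, an enzyme that makes GABA, was at 0.43, 10.3 and 0.32 RPKM in DPPJ and at 145, 1.19 and 123 RPKM in MHPJ, which is the pattern of GRIN1 over the same libraries, and was no DEG. Of 13 genes for glutamate synthesis and transport, 5 were lower and 1 was higher in DPs. GLUL, which turns glutamate into glutamine, was at 32.6, 76.7 and 26.9 RPKM against 332, 275 and 220 RPKM (-2.79, SE 0.45, adjusted p = 0.0237). The higher gene was SLC17A8, the vesicular glutamate transporter VGLUT3, at 10.7, 10.8 and 17.4 RPKM against 0.16, 1.42 and 0.46 RPKM (4.03, SE 0.84, adjusted p = 0.0388). Like GABRQ, it did not overlap between the groups.

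Of 22 tested genes for auxiliary and scaffold proteins of glutamate receptors, 11 were lower in juvenile DPs and 0 higher. HOMER1, which links group I metabotropic receptors to the cell's calcium stores, was at 4.85, 4.59 and 6.04 RPKM against 38.7, 20.7 and 41.0 RPKM (-2.88, SE 0.30, adjusted p = 0.0111). In the adult pituitary, the counts were 1 higher of 12, 0 of 13 and 2 higher of 20 in the 3 lists, with none lower. In the MH pituitary between the stages, 0 of 13 genes of the first list differed, 3 of 13 of the second were higher in juveniles and 1 lower, and 6 of 23 of the third were higher. In the DP pituitary, 0 of 12, 1 of 12 and 2 of 21 were lower in juveniles and none higher. In the juvenile long bone, 0 of 9 genes of the first list, 1 of 6 of the second and 4 of 19 of the third were DEGs between the breeds. NETO1, an auxiliary subunit of kainate receptors, was lower in DPs in the long bone both in juveniles (-3.90, SE 0.64, adjusted p = 0.136) and in adults (-3.52, SE 0.78, adjusted p = 0.0616), at 0.03 to 0.18 RPKM in the 6 DP libraries and 0.47 to 2.70 RPKM in the 6 MH libraries. CNIH3, which binds AMPA receptors, was lower in both as well (-2.99, SE 0.77 and -2.24, SE 0.80), at 0.50 to 6.84 RPKM against 10.7 to 29.8 RPKM. In the adult long bone, 1 gene was higher and 1 lower of 10, 0 were higher and 2 lower of 9, and 5 were higher and 3 lower of 20 in the 3 lists. Between the stages in the long bone, MHs had 0 of 9, 2 lower of 9 and 1 higher of 18 genes, and DPs 0 of 8, 0 of 8 and 1 lower of 18. Between the tissues, 11 of 13, 8 of 13 and 14 of 24 genes were higher in the pituitary, and 0, 1 and 3 were lower. Of all genes, 21.5% were higher and 17.4% lower there. The shares of DEGs among all genes were 2.93% in the adult, 7.74% in the MH and 3.56% in the DP pituitary. In the long bone they were 13.8% in juveniles and 18.3% in adults between the breeds, and 2.91% in MHs and 3.14% in DPs between the stages.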

How the data were processed

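Ribosomal RNA was removed, and directional libraries were sequenced on an Illumina instrument. After removal of short reads, the authors mapped the rest to the horse genome (EquCab 3.0) and deposited raw counts per gene. A second deposited table holds RPKM, in which counts are scaled by gene length and library size. The submitters' processing notes name bcl2fastq, TopHat2 and edgeR, whereas the study's methods name Salmon for transcript abundance. Which of these gave the deposited counts, and with which strand setting, is not given in the sources used here, so that reads of overlapping or antisense genes may not be separated. Replicates are separate libraries of 3 horses per breed and stage. The replicate numbers were not stated to name a horse.

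DEGs were tested here on the counts of all genes of a comparison with edgeR 4.0.16 in R 4.3.3: TMM normalization, filterByExpr with a minimum count of 10, glmQLFit and glmQLFTest on the libraries of the compared groups. The tissue comparison used all 24 libraries, without pairing the tissues of a horse, and the stage difference all 12 pituitary libraries. The study's threshold was kept (fold change above 2 with an unadjusted P under 0.05), with Benjamini-Hochberg adjusted p-values over all genes beside it. The scripts were tested on simulated data. Fold changes come from the counts and levels from the deposited RPKM, which matched the counts within 2% for every member with enough reads to compare. In each comparison every DEG among the members was named, or the 25 with the lowest P where there were more, and the others were given by counts and ranges. The 10 most abundant members of the pituitary and the 5 of the long bone, by median RPKM, were described in each group. Whether groups overlapped was looked at for named genes only, so no share over all genes stands beside it. Some genes that these rules select are not reported here, although the counts include them. The members and the gene and marker lists were chosen with earlier results of these data known, so they are not independent evidence. Of the list genes, SLC6A12, LHFPL4, CACNG5, CACNG8, CNIH2 and GRIP2 and the markers NEFL, GJA1, LHB, CGA, COL1A1, HBA and MYH7 were not used here.

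Alternatives were DESeq2 1.42.0, no low-count filter, no TMM normalization, relative log expression size factors, a replicate block, the adjusted threshold and leaving out each library. A fit without the pituitary libraries under 10 RPKM of GH, made only for the adult pituitary and the tissue comparison, was chosen after seeing the data. Deviations from the group means correlated between same-numbered libraries in each pair of the adult pituitary (r across genes 0.64, 0.53 and 0.35). The main fit there was nevertheless unpaired, with the replicate block only as an alternative. The labels do not pair the numbers, and the libraries compared come from horses of different breeds. DPPA replicate 1 and MHPA replicate 1 were also both low in GH. In no other comparison did every pair exceed 0.1.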

Additional observations from a re-analysis of the deposited data

Results flagged for a closer look

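The effect of breed on the pituitary differed between the stages for 18 members, by edgeR's test of the difference itself over 12 libraries (unadjusted P under 0.05 and more than 2-fold). None had an adjusted p under 0.05 in edgeR, where the lowest was 0.131, and 11 had in DESeq2. Of all genes, with a more than 2-fold change as well, 0 of 15200 passed in edgeR and 1051 in DESeq2. The values are the log2 DP to MH difference in juveniles minus that in adults. Among GABA receptor genes they were -3.74 for GABRA2, -1.96 for GABRA3, -6.87 for GABRA4, -8.85 for GABRA5, -7.11 for GABRB2, -5.46 for GABRD, -3.77 for GABRG3, 4.37 for GABRQ and -1.75 for GABBR1. Among glutamate receptor genes they were -5.87 for GRIA1, -4.51 for GRIA3, -4.18 for GRIK3, -7.96 for GRIN1, -4.96 for GRIN2A, -7.33 for GRM5, -4.99 for GRM6, -5.43 for GRM7 and -4.97 for GRM8. The libraries with the highest neuron marker sums were MHPJ replicates 1 and 3 and DPPA replicate 1, which enter these differences with the same sign. GRIA3, GRIK3, GABRA2, GABRA3, GABBR1 and GRM7 kept their call in all 12 fits with 1 library left out, and the other 12 genes lost it in at least 1. GRIN1 and GRM5 kept it in 5 of the 12, with values from -11.43 to -2.0 and from -10.98 to -2.74. For GABRA5 the values ranged from -9.64 to -3.25. The part of neuronal RNA in the differences was not tested.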

How the results depend on the processing

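The counts of DEGs among the members depended on the threshold and on single libraries, and the causes were not tested. With edgeR's adjusted p, the counts were 5 in the juvenile pituitary and 0 in the juvenile long bone, adult long bone, both stage comparisons of the pituitary and the stage difference. DESeq2's adjusted p gave 20 in the juvenile pituitary, 6 in the MH pituitary, 2 in the DP pituitary, 11 for the stage difference and 0 in the juvenile and adult long bone. DESeq2 called 1 member in the adult pituitary, 18 in the MH pituitary and 1 in the DP long bone. Without the low-count filter, the counts were 2 in the adult pituitary, 8 in the juvenile and 3 in the adult long bone, and between the stages 10 for the DP pituitary, 1 for the MH long bone and 1 for the DP long bone. Without TMM normalization the DP pituitary had 3. That setting shifted the median of all genes by over 0.1 in several comparisons, from -0.01 to -0.22 in the adult pituitary and from 0.03 to 0.24 between the tissues, for example. With the replicate block, the counts were 6 for juvenile and 2 for adult pituitaries between the breeds, 0 in the adult long bone, 5 in the MH pituitary, 3 in the DP pituitary and 11 for the stage difference. Without the libraries under 10 RPKM of GH the adult pituitary had 5. With each library left out in turn, the counts ranged from 8 to 34 for juvenile and 0 to 4 for adult pituitaries between the breeds, from 2 to 9 in the juvenile long bone, 1 to 4 in the adult long bone, 5 to 23 in the MH pituitary, 3 to 13 in the DP pituitary, 0 to 2 in the MH long bone, 0 to 2 in the DP long bone, 38 to 40 between the tissues and 8 to 27 for the stage difference. Over all genes these fits gave 2153 to 4505 DEGs for juvenile and 415 to 785 for adult pituitaries between the breeds. In the long bone they gave 1194 to 3087 in juveniles and 1924 to 2956 in adults. Between the stages they gave 651 to 2308 in the MH and 259 to 1141 in the DP pituitary. The MH and DP long bone had 265 to 778 and 209 to 1323. Ranges were 6257 to 6624 between the tissues and 1359 to 3860 for the stage difference. Of 1552 values of named genes under an alternative, 1314 kept direction and call, 237 lost the call and 1 changed sign, GABRA4 in the DP pituitary without DPPA replicate 1. The log2 fold change of GABRA4 there ranged from -4.39 to 0.048 with 1 library left out. DESeq2 gave no p for 3 other values. With 3 libraries per group, an exact permutation test of 1 gene cannot go below 0.1, and in the long bone, at similar depth, 18 to 20 of 46 genes had enough reads to be tested between groups.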
